A study of Homo sapiens with 6 samples.

Results

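The replication-dependent histone genes were examined in 6 RNA-seq libraries of HEK293T cells, a line derived from human embryonic kidney. Members were the rows of the deposited count table with a symbol starting in HIST1H, HIST2H, HIST3H or HIST4H, no pseudogene annotation, and at least 10 reads summed over the 6 libraries. Of 59087 rows in the table, 89 had such a symbol, 19 of these were pseudogenes, and 38 of the other 70 were under 10 reads, which left 32 members. The 6 libraries fell into groups of 2: cells labelled WT, and 2 lines labelled THUMPD2 KO#1 and THUMPD2 KO#2 (KO1 and KO2 below). THUMPD2 encodes an RNA methyltransferase. There was 1 WT line, the labels do not say whether a knockout line was grown from 1 clone or how THUMPD2 was disrupted, and they name no treatment. They also do not say that libraries of a group were separate cultures, so a p-value here measures the spread between libraries, which may be technical.

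Replication-dependent histone genes supply the core histones H2A, H2B, H3 and H4 and the linker histone H1 while a cell copies its DNA. They lie in clusters, the main one on chromosome 6 (HIST1) and smaller ones on chromosome 1 (HIST2 and HIST3), and most have no introns. Their mRNAs usually end not in a poly(A) tail but just after a short stem-loop, which the stem-loop binding protein SLBP recognises and which is cut with the help of the U7 snRNP. Whether poly(A) RNA was selected or ribosomal RNA depleted before sequencing is not given in the sources used here.

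The stem-loop is the feature that sets these transcripts apart from other mRNAs, and it is printed for 4 members whose values are described below, 5′ to 3′ on the gene's strand (GENCODE v29 transcripts, GRCh38). Capitals mark the stem and its loop.
HIST1H4I: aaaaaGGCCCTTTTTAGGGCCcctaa
HIST2H2AA3: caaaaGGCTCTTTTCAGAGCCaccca
HIST1H2BE: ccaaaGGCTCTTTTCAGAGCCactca
HIST3H3: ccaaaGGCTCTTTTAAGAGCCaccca
They lie at chr6:27139649-27139674 (plus strand), chr1:149842218-149842243 (minus), chr6:26184205-26184230 (plus) and chr1:228424848-228424873 (minus). A stem-loop was found in an annotated transcript of 17 of the 32 members. Of the 15 others, 12 have gene models that end at the coding sequence, and HIST1H1E, HIST1H2BJ and HIST1H4C have longer ones. Some models run past it. The single transcript of HIST1H4I has 212 bases after the stem-loop and 721 bases before its coding sequence, and the longer one of HIST1H2BE has 430 bases after it. Reads from outside a processed histone mRNA could therefore be counted in such rows.

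Promoter sequence was found in RefSeq (GRCh38.p14) for 27 of the 32 members. The 150 bases before the RefSeq start are printed for 2 members that had lower counts in knockout lines, with capitals for CCAAT and TATAAA on either strand, which overlap each other once in HIST1H3F.
HIST1H3F: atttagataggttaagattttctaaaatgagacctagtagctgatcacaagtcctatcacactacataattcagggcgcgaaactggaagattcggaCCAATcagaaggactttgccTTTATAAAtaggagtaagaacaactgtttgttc
HIST2H2AA3: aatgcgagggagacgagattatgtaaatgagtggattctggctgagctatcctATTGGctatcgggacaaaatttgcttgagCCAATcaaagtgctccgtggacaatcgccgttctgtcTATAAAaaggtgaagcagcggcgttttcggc
They lie at chr6:26250636-26250785 and chr1:149842751-149842900, both on the minus strand. In windows from 250 bases before to 50 after the start, CCAAT was found on either strand in 26 of 27 members (96.3%) and in 34.6% of 35116 RefSeq promoters. TATAAA was in 18 members (66.7%) and 11.5% of promoters, and the octamer ATTTGCAT in 9 (33.3%) and 1.77%. All 9 octamer matches were in H2A or H2B genes, 5 of 9 and 4 of 6. The HIST1H4I window held a CCAAT and no TATAAA, and its RefSeq start, 27139282, is 694 bases downstream of the gene start in GENCODE. HIST1H2BE was not matched.

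Library totals ran from 7414339 to 8391143 reads. The THUMPD2 row had 0 to 3 reads in each library, so the target does not check the labels. Of the markers of the HEK293T line, the VIM row (296 to 692 reads) and the KRT8 row (2560 to 4914) had reads in every library and PAX2 had 0 to 5. VIM shares exonic bases with VIM-AS1 (23367 to 47482 reads) and KRT8 with KRT18 (72 to 255), each on the other strand. Either row may hold reads of its partner. Of 6 such markers tested, 3 were lower in KO1, and 5 were higher and 1 lower in KO2, and their part in the histone values was not tested. ALB of hepatocytes was at 0, and PTPRC (blood), PECAM1 (endothelium) and COL1A1 (fibroblasts) had 5 to 18. The strand of the counts matters for every row. The libraries came from a directional kit, and the setting used in counting is not given in the sources used here. The GAPDH row held 126 to 202 reads in the 6 libraries, whereas AC006064.4, over it on the other strand, held 122213 to 142186. TUBA1B held 162 to 243 against 164713 to 197890 for AC011603.2 over it. In both pairs the reads sat on the row opposite to an abundant gene, so the row of a histone gene may hold reads from the other strand, and a change of a row is not stated here as a change of that gene's mRNA. In bulk RNA, fewer cells in S phase and less RNA per cell cannot be told apart.

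Histone rows held few reads. Together the 32 members had 14068 reads over the 6 libraries, 0.030% of all counts, and 12682 of these were in HIST1H4I. The other 31 members shared 9.85% of the member reads, and 27 members had under 100. A low-count filter left 12 members to test, and the 20 that were not tested had 10 to 52 summed reads and at most 13 in any library. By type the members (tested in parentheses) were 4 H1 (3), 9 H2A (2), 10 H2B (3), 6 H3 (2) and 3 H4 (2). By cluster 25 were in HIST1 (9 tested), 4 in HIST2 (1), 3 in HIST3 (2) and none in HIST4. At the lower limit, HIST1H3A, HIST2H2BE and HIST2H3D had 10 reads each, and the highest row left out, HIST1H2BD, had 8. In the order WT, KO1, KO2, HIST1H3A had 1 and 3, 0 and 3, and 3 and 0 reads, and HIST2H2BE had 3 and 1, 2 and 0, and 2 and 2. HIST2H3D had 1 and 1, 0 and 2, and 2 and 4, and HIST1H2BD 1 and 1, 0 and 0, and 1 and 5. At this depth no order of the groups can be read. The 38 rows left out included 15 at 0 in all 6 libraries, among them HIST2H4A, HIST2H4B and HIST1H4A.

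**Figure D1:**
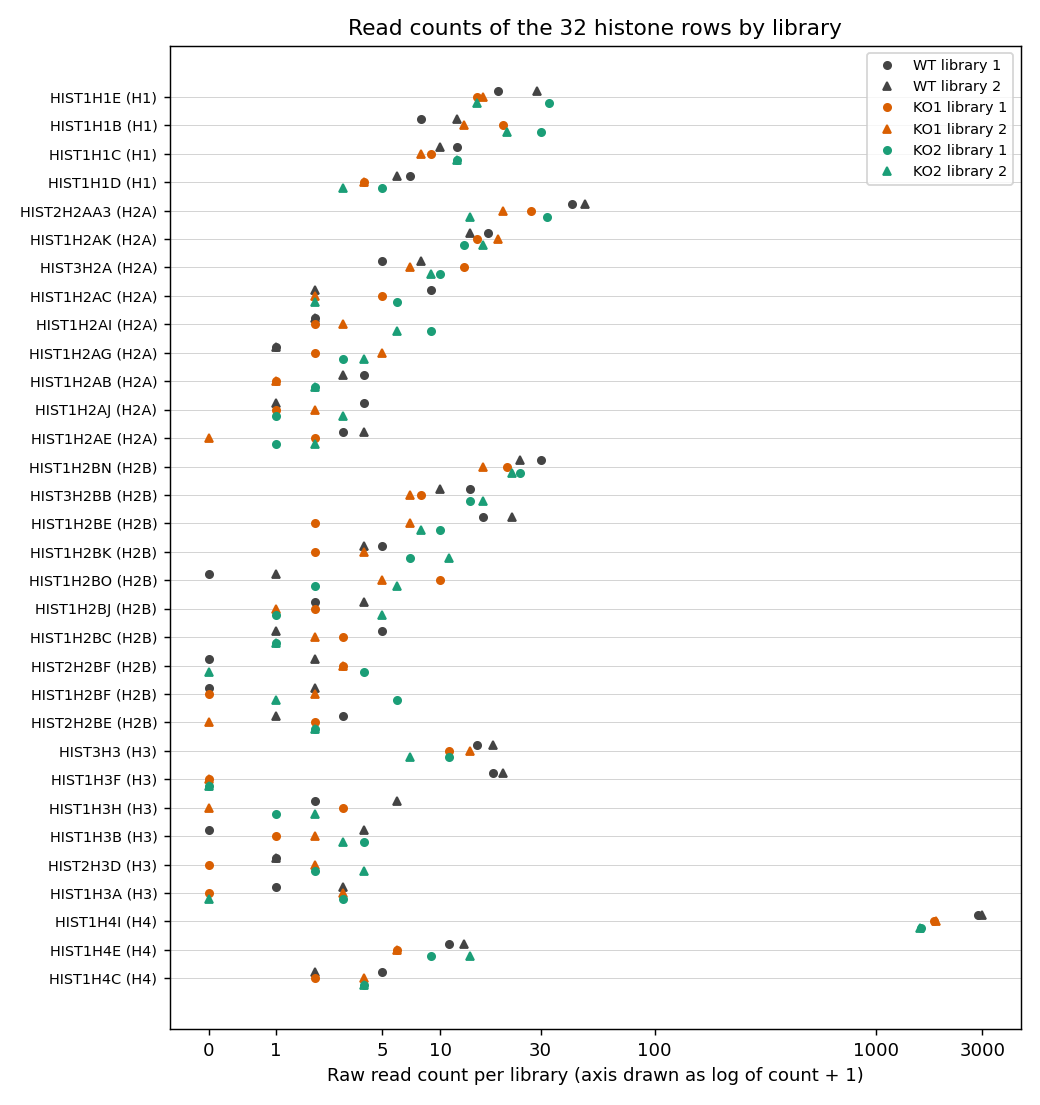
Raw read counts of the 32 histone rows (y axis, grouped by histone type) in each of the 6 libraries (x axis, drawn as the log of count + 1). Colours mark WT, KO1 and KO2, and circles and triangles mark libraries 1 and 2. HIST1H4I stands above every other member, which stay under 50 reads, and the HIST1H3F points of all 4 knockout libraries lie at 0.

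The 12 tested members are 12 of the 14184 rows fitted together with the edgeR quasi-likelihood test, and a row counted as called where its p, adjusted over all of them by Benjamini-Hochberg, was under 0.05. In KO1 against WT 3 members were lower and none higher, where 13.3% of all tested rows were called lower and 10.4% higher. In KO2 against WT 3 were again lower and none higher, beside 15.4% and 13.6% of all rows. For the mean of both lines, 4 members were lower and none higher, beside 15.9% and 12.3%. Members lower in both lines were HIST1H4I and HIST1H3F, beside 7.72% of all rows, and no member was higher in both, beside 5.79%. HIST1H3F had no reads in the knockout libraries and passed the filter through WT alone, so the filter favoured its call. Without HIST1H3F the counts of 3, 3, 4 and 2 are 2, 2, 3 and 1. HIST1H2BE, with 16 and 22 WT reads and 2 to 10 in a knockout library, also passed through WT alone. Its favoured call is still in the KO1 count and in the count for the mean. The 2 comparisons share the WT libraries. The median log2 fold change of the 12 was −0.56 in KO1 and −0.30 in KO2, against 0.01 and 0.02 over all tested rows. In each line 10 of the 12 were below 0, where 6962 (KO1) and 6851 (KO2) of all 14184 tested rows were. At an unadjusted p under 0.05 there were 4 of 12 members in KO1, where 33.6% of all tested rows were, and 5 of 12 in KO2, where 37.4% were. The counts of calls and of unadjusted p-values differ from the shares over all rows by few rows. The counts below 0 lie above their shares, include HIST1H3F and HIST1H2BE, and were not tested. They also include HIST1H4E, which needed its WT reads to pass the filter. It had 11 and 13, against 6 and 6 for KO1 and 9 and 14 for KO2. HIST1H1B, above 0 in both lines, passed through the knockout libraries. All these counts describe only members with enough reads to test.

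**Figure D2:**
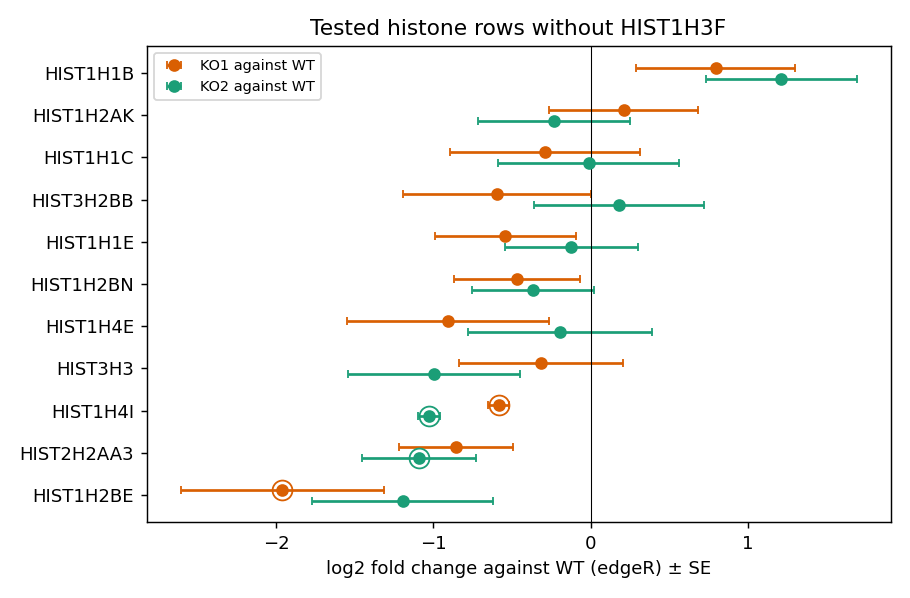
Log2 fold changes against WT with their standard errors (x axis, edgeR, 2 libraries against 2) for 11 tested histone rows; HIST1H3F, with no knockout reads, is left out. Circles mark called values, which are HIST1H4I in both lines, HIST1H2BE in KO1 and HIST2H2AA3 in KO2.

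The histone row with the most reads was that of HIST1H4I, 1 of several genes for the core histone H4 (ENSG00000276180.1, chromosome 6, 27138588 to 27139881, plus strand, a single exon of 1294 bases). Like the GAPDH and TUBA1B rows, this row may hold reads from the other strand, so its counts are not read as H4 mRNA. It had 2862 and 2984 WT reads, against 1822 and 1865 for KO1 and 1582 and 1567 for KO2. The groups did not overlap, with WT highest and KO2 lowest. Counts scaled to library size (CPM, with TMM factors) were 380 ± 8.36 (SD, n = 2), 254 ± 14.7 and 187 ± 8.08. By the edgeR quasi-likelihood test it fell in KO1 by 0.58 ± 0.07 on the log2 scale (SE), 1.499-fold, with a Benjamini-Hochberg adjusted p of 1.07e-08. In KO2 it fell by 1.03 ± 0.07, 2.04-fold, with an adjusted p of 9.48e-15 in the same fit. Each call held in all 14 ways of processing that were run, from −0.85 to −0.51 in KO1 and from −1.06 to −0.98 in KO2.

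HIST1H4I was also the 1 member that separated the knockout lines, where 20.4% of all tested rows were called, 10.1% higher in KO1 than in KO2 and 10.3% lower. It was higher in KO1 by 0.44 ± 0.07 (log2, edgeR), with an adjusted p of 4.22e-06. The stretch of chromosome 6 that holds the HIST1 cluster moved too. Over the 20 well-counted rows between 20000001 and 30000000, the median log2 fold change was 0.27 in KO1 and 0.02 in KO2. With that regional median taken out, the difference between the lines was 0.20 with an adjusted p of 0.0501 and was not called, while both falls against WT were.

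No annotated gene lay opposite HIST1H4I, and 99.4% of the 50-base windows in its exon occur in no other gene outside its locus. Its histone neighbours had few reads. HIST1H2AG, an H2A gene 3297 bases away, had 1 and 1 WT reads, against 2 and 5 for KO1 and 3 and 4 for KO2. HIST1H2BJ had 1 to 5 reads in each library and HIST1H2BK 2 to 11. Per kilobase of exon HIST1H4I stood at 294 CPM in WT, 196 in KO1 and 144 in KO2, and the next member, HIST2H2AA3, at 10.6, 5.86 and 5.01. Of the other H4 rows, HIST1H4E had 11 and 13 WT reads, against 6 and 6 for KO1 and 9 and 14 for KO2, with log2 values of −0.91 ± 0.64 and −0.20 ± 0.58, neither called. HIST1H4C had 5 and 2, 2 and 4, and 4 and 4 reads, too few to test.

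**Figure D3:**
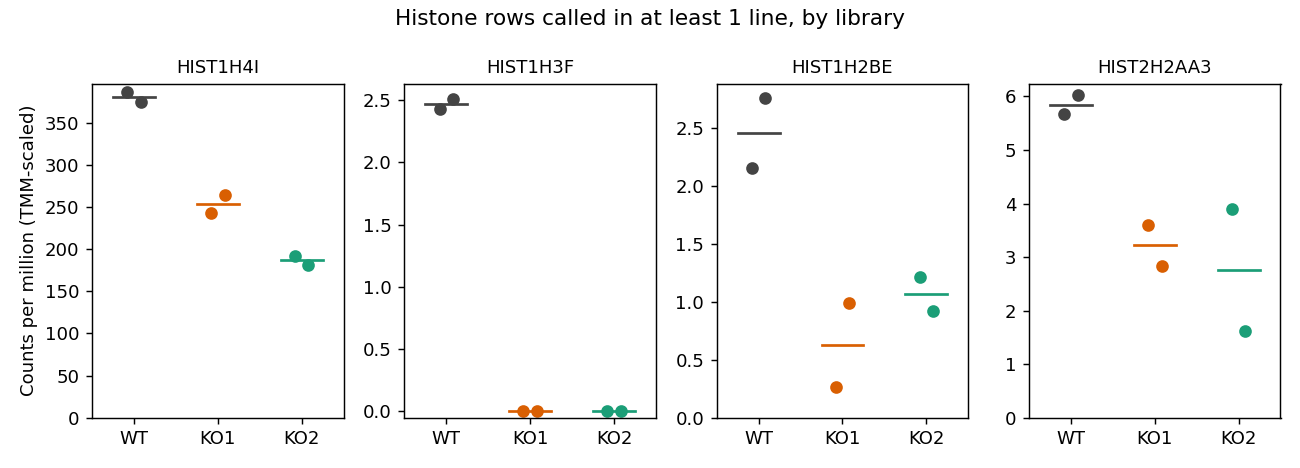
CPM (TMM-scaled, y axes from 0 and different in each panel) of the 4 histone rows called in at least 1 line; points are libraries and bars are means of 2. In each panel all 4 knockout libraries lie below both WT libraries.

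HIST1H3F, a gene for the core histone H3, had reads only in WT (ENSG00000277775.1, chromosome 6, 26250195 to 26250605, minus strand, 411 bases, a model without UTRs). It had 18 and 20 reads in the WT libraries and none in any of the 4 knockout libraries. Set against 3 counts over each empty group, it was at least 12.0-fold lower in KO1 and at least 13.9-fold lower in KO2. These bounds cover counting error only. The edgeR quasi-likelihood test gave Benjamini-Hochberg adjusted p-values of 0.000106 and 4.16e-05. The row passed the low-count filter through the WT libraries alone, and DESeq2 called it in KO1 and gave no adjusted p in KO2. All of its 50-base windows are absent from other genes, and no gene lies opposite. Over all rows of the counts, 10 had at least 10 reads in each WT library and none in a knockout library.

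No histone row next to HIST1H3F had enough reads to test. HIST1H2BH, 1046 bases away, had 0 and 0 WT reads, against 1 and 1 for KO1 and 3 and 0 for KO2. HIST1H1D, a linker histone gene 15262 bases away, had 7 and 6, 4 and 4, and 5 and 3. HIST1H4G, 3218 bases away, was at 0 in every library. The other H3 member tested, HIST3H3 (H3.4, known from testis, chromosome 1, 228424845 to 228425325), had 15 and 18 WT reads, against 11 and 14 for KO1 and 11 and 7 for KO2. Its knockout libraries all lay below WT, and its log2 values of −0.31 ± 0.52 and −0.99 ± 0.55 were not called. The 4 remaining H3 rows had 10 to 14 reads each.

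Among 9 H2A rows, HIST2H2AA3 was the only one called (ENSG00000203812.2, chromosome 1, 149842188 to 149842736, minus strand, 549 bases). It had 42 and 48 WT reads, against 27 and 20 for KO1 and 32 and 14 for KO2. All knockout libraries were below both WT libraries, and the KO2 libraries were far apart. It fell in KO2 by 1.09 ± 0.36 on the log2 scale, 2.13-fold (edgeR, Benjamini-Hochberg adjusted p 0.0195). In KO1 it stood at −0.86 ± 0.36 with an adjusted p of 0.0840 and was not called. The KO2 call ended without WT library 2 (−1.05, adjusted p 0.0648), without KO2 library 2 (−0.58, 0.352) and with DESeq2 (−1.11, 0.180). Without KO2 library 1 it was larger (−1.84, adjusted p 0.00116). The mean of both lines, −0.97 ± 0.30 with an adjusted p of 0.0137, lost its call without those same libraries (−0.93 and −0.72) and with DESeq2 (−0.98).

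HIST2H2AA3 has a near-identical copy, HIST2H2AA4, 8325 bases away. All 500 of its 50-base windows occur in that copy, which had no reads in any library, so the division of reads between the copies is uncertain. Beside it lie 2 histone pseudogene rows, which are not members. HIST2H2BD starts 139 bases away on the other strand and had 164 and 163 WT reads, against 95 and 67 for KO1 and 105 and 105 for KO2. By edgeR it fell by 0.94 ± 0.19 and 0.77 ± 0.18 on the log2 scale (adjusted p 0.000223 and 0.00112). HIST2H2BC, which overlaps HIST2H2BD by 1989 exonic bases on opposite strands, had 366 and 376, 280 and 170, and 222 and 258 reads, and fell by 0.65 ± 0.14 and 0.76 ± 0.14 (adjusted p 0.000494 and 3.52e-05). In all 3 rows, on 1 stretch of chromosome 1, the knockout libraries lay below both WT libraries. Over 25 well-counted rows of the surrounding 10 Mb, the median was −0.19 in KO1 and −0.10 in KO2.

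The remaining H2A rows showed no called change. HIST1H2AK had 17 and 14 WT reads, against 15 and 19 for KO1 and 13 and 16 for KO2, with overlapping groups and log2 values of 0.21 ± 0.47 and −0.23 ± 0.48. All 393 of its exonic bases lie under HIST1H2BN, an H2B gene on the other strand, so reads of the pair are hard to assign. HIST1H2BN had 30 and 24, 21 and 16, and 24 and 22 reads, with log2 values of −0.47 ± 0.40 and −0.37 ± 0.39, neither called. HIST3H2A, not tested, had 5 and 8, 13 and 7, and 10 and 9. The other 6 H2A rows had 12 to 26 summed reads. HIST1H2AI and HIST1H2AJ share 283 windows with each other.

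HIST1H2BE, an H2B gene, was the only H2B row called (ENSG00000274290.2, chromosome 6, 26172059 to 26184655, plus strand, 2585 exonic bases). It had 16 and 22 WT reads, against 2 and 7 for KO1 and 10 and 8 for KO2. The knockout libraries all lay below WT, and in CPM 1 KO1 library lay between the KO2 libraries. The row passed the low-count filter through the WT libraries alone, which favoured its call. It fell in KO1 by 1.96 ± 0.65 on the log2 scale, 3.89-fold (edgeR, Benjamini-Hochberg adjusted p 0.0231). In KO2 it stood at −1.19 ± 0.58 with an adjusted p of 0.125, not called, and the difference between the lines did not pass the test (−0.77 ± 0.71, adjusted p 0.519). The KO1 call ended without WT library 2 (−1.77, adjusted p 0.167), without KO1 library 1 (−1.30, 0.235) and with DESeq2 (−1.97, 0.201). The mean of both lines, −1.58 ± 0.51 with an adjusted p of 0.0169, lost its call in the same 3 settings (−1.39, −1.25 and −1.60). Without KO1 library 2, which had 7 reads where KO1 library 1 had 2, the KO1 value was −3.13 (adjusted p 0.0120) and the mean −2.17 (0.00458), so the size rests on single libraries.

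The HIST1H2BE row shares 730 exonic bases with AL353759.1, an antisense row on the other strand. AL353759.1 had 61 and 67 WT reads, against 63 and 51 for KO1 and 59 and 42 for KO2. Its log2 values of −0.09 ± 0.25 and −0.47 ± 0.26 passed in neither line (edgeR adjusted p 0.846 and 0.180). HIST2H2BF, with 0 and 2, 3 and 3, and 4 and 0 reads, shares 177 exonic bases with FCGR1A, an Fc receptor gene, whose row had 2 and 4, 3 and 1, and 6 and 10. With HIST1H2AK and HIST1H2BN these make 4 members over an opposite-strand gene. The other 28 had none.

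HIST3H2BB, the third tested H2B row, had 14 and 10 WT reads, against 8 and 7 for KO1 and 14 and 16 for KO2, with log2 values of −0.60 ± 0.60 and 0.18 ± 0.54. HIST1H2BK had 5 and 4, 2 and 4, and 7 and 11 reads, and it shares 204 of 332 windows with H2BFS. HIST1H2BO ran the other way from most members, with 0 and 1 WT reads, against 10 and 5 for KO1 and 2 and 6 for KO2. The WT libraries lay below all knockout libraries, and the row was too low to test. With the filter lowered to 10 summed reads, edgeR called it higher in KO1 at an adjusted p of 0.0398. With 1 read in the WT group no fold is given. The other 4 untested H2B rows had 10 to 15 summed reads.

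The linker histone H1 binds the DNA that enters and leaves the nucleosome, and no H1 row was called by edgeR in either line, with 1 at an unadjusted p under 0.05 in KO2 and 0 in KO1. HIST1H1B (H1.5, chromosome 6, 27866849 to 27867529) had 8 and 12 WT reads, against 20 and 13 for KO1 and 30 and 21 for KO2. All 4 knockout libraries were above WT, the reverse of the core histone rows that were called. The HIST1H1B row passed the low-count filter through the knockout libraries, and WT alone would not have passed, which favoured this order. Its log2 values were 0.79 ± 0.50 and 1.21 ± 0.48, with edgeR adjusted p-values of 0.284 and 0.0540. The KO2 value lay near the threshold. It was called in 4 of 13 alternatives, at adjusted p-values of 0.0407 to 0.0490 (upper-quartile scaling and without KO1 library 1, KO1 library 2 or KO2 library 2). It was farthest from a call without KO2 library 1 (0.90, adjusted p 0.352), with DESeq2 (1.21, 0.300) and without WT library 1 (1.00, 0.243). HIST1H1E (H1.4) had 19 and 29, 15 and 16, and 33 and 15 reads, with KO1 below WT, KO2 overlapping it, and log2 values of −0.54 ± 0.45 and −0.12 ± 0.42. HIST1H1C (H1.2) had 12 and 10, 9 and 8, and 12 and 12, with −0.29 ± 0.60 and −0.01 ± 0.58.

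Of the 12 tested members, 6 had all 4 knockout libraries below both WT libraries in CPM, beside 18.6% of all tested rows, and 1, HIST1H1B, had all above, beside 17.4%. Among the 6, HIST1H3F and HIST1H2BE passed the low-count filter through WT alone, which favoured this order. HIST1H1B, with 8 and 12 WT reads, passed it through the knockout libraries, which favoured its order. In summed CPM the members stood at 421 and 409 for WT, 269 and 289 for KO1, and 224 and 206 for KO2. These sums follow HIST1H4I. Without it the 31 others stood at 35.2 and 34.9, 25.6 and 25.2, and 31.8 and 24.8, ratios to WT of 0.725 and 0.809. KO1 and KO2 were thus below WT in every library, but KO2 library 1 was close to it. Without HIST1H3F as well the ratios were 0.780 and 0.870. The 20 untested rows summed to 7.96 and 7.27, 7.74 and 7.36, and 8.99 and 8.08, ratios of 0.991 and 1.12. A low row with enough WT reads passes the filter and leaves this set, as HIST1H3F did. These ratios therefore cannot show whether low rows fell.

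By type the sums differed in level, but for H1 the libraries of a group differed as much as the groups. H1 rows had 6.20 and 7.15 WT CPM, against 6.41 and 5.80 for KO1 and 9.72 and 5.89 for KO2, with overlapping groups. H2A rows had 11.7 and 10.4, 9.07 and 8.35, and 9.36 and 6.69, with the knockout libraries below WT. H2B rows had 10.1 and 8.90, 7.07 and 6.65, and 8.63 and 8.31. H3 rows had 4.99 and 6.52, 2.00 and 2.97, and 2.55 and 1.85, ratios of 0.432 and 0.382 that became 0.756 and 0.669 without HIST1H3F. H4 rows, nearly all HIST1H4I reads, had ratios of 0.667 and 0.493, and 0.615 and 0.906 without it. By cluster the ratios in KO1 and KO2 were 0.670 and 0.513 for HIST1, or 0.721 and 0.861 without HIST1H4I. They were 0.614 and 0.563 for HIST2, where HIST2H2AA3 held most reads, and 0.905 and 0.873 for HIST3. No p-value is given for these sums.

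**Figure D4:**
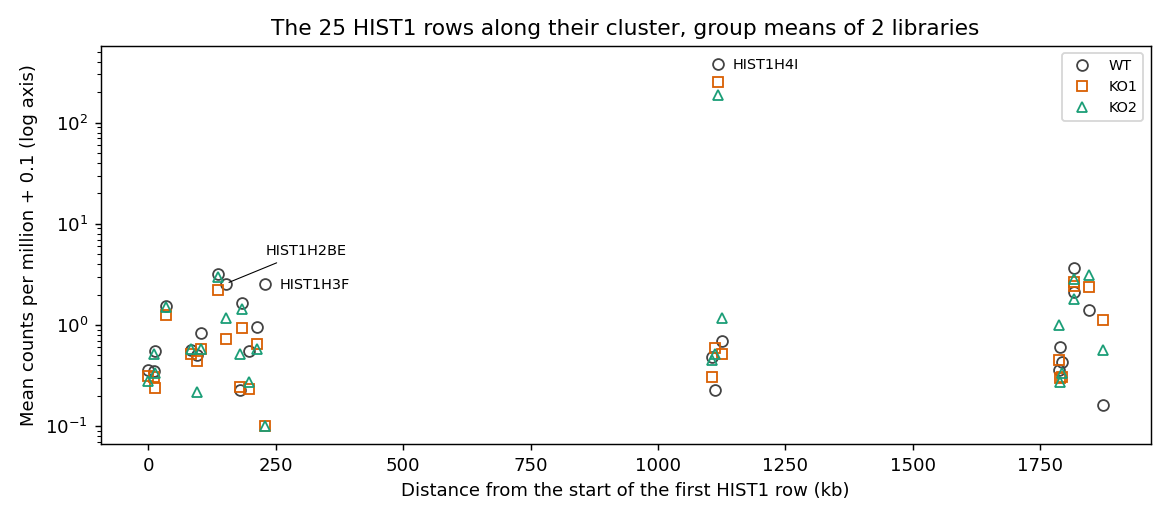
Group means of CPM plus 0.1 (y axis, log) for the 25 HIST1 rows against their distance from the first row in kilobases (x axis). HIST1H4I stands at 380 CPM in WT, 254 in KO1 and 187 in KO2 among rows of a few CPM, and HIST1H3F is at 0 in both knockout lines.

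Rows that are not histone genes but lie within the HIST1 span (chromosome 6, 26020490 to 27893843) were examined beside the histone rows. Of 54 such rows 10 could be tested, and none was called lower in either line, where 13.3% of all rows were in KO1 and 15.4% in KO2. With 10 rows this is near the shares over all rows, and the difference from the histone rows was not tested. In KO1 2 were higher, LINC00240 and AL031118.1, and in KO2 none was by edgeR, with none at an unadjusted p under 0.05. LINC00240, a long noncoding RNA, had 98 and 86 WT reads, against 171 and 189 for KO1 and 136 and 102 for KO2, and rose in KO1 by 1.05 ± 0.19 (adjusted p 4.67e-05). AL031118.1 had 18 and 23, 61 and 46, and 25 and 28, and rose in KO1 by 1.46 ± 0.33 (adjusted p 0.000810).

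Genes that act on histone genes, mRNAs or proteins, and replication-independent histone genes, were taken from 4 further lists. The list medians stand beside 0.01 in KO1 and 0.02 in KO2 over all tested rows. Their counts of called rows stand beside 10.4% higher and 13.3% lower over all rows in KO1, 13.6% and 15.4% in KO2, and 5.79% and 7.72% in both lines. In lists of 10 to 22 tested rows, the counts below differ from these shares by few rows, and nothing is read from them about a list. Histone mRNA 3′ processing and decay had 19 tested rows of 26, with medians of −0.06 and 0.23 and none called in both lines. In KO1 1 was higher and 1 lower, and in KO2 2 and 2, with 5 and 6 at an unadjusted p under 0.05 (33.6% and 37.4% of all rows). WDR33, a subunit of the polyadenylation complex, had 1672 and 1803 WT reads, against 2534 and 2550 for KO1 and 1879 and 1977 for KO2. It rose in KO1 by 0.63 ± 0.07 (edgeR adjusted p 1.41e-09) and stood at 0.02 ± 0.07 in KO2. CSTF3, of the cleavage stimulation factor, had 363 and 356, 220 and 182, and 354 and 370, fell in KO1 by 0.76 ± 0.12 (adjusted p 5.35e-06) and stood at −0.13 ± 0.11 in KO2. Both rows lie over exons of another gene, SFT2D3 and TCP11L1.

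Histone gene transcription had 13 tested rows of 16, with medians of 0.27 and 0.33. In each line 2 were higher and 1 lower, and E2F3 and YY1 were higher in both. E2F3, a transcription factor of the G1 to S transition, had 24 and 47 WT reads, against 101 and 82 for KO1 and 127 and 113 for KO2, with no gene opposite and no overlap between WT and knockout libraries. By edgeR it rose by 1.45 ± 0.25 and 1.63 ± 0.25 on the log2 scale (adjusted p 3.10e-05 and 2.12e-06). YY1, a zinc finger transcription factor, had 397 and 421, 535 and 512, and 746 and 767 reads and rose by 0.44 ± 0.09 and 0.75 ± 0.09 (adjusted p 0.000296 and 1.11e-08). Its row shares 107 exonic bases with AL157871.6.

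Histone chaperones had 22 tested rows of 26, with medians of 0.14 and 0.14, 2 higher and 1 lower in KO1, and 4 and 2 in KO2. In both lines SUPT6H was higher and RBBP4 lower. RBBP4, a subunit of chromatin assembly factor 1, had 171 and 194 WT reads, against 66 and 84 for KO1 and 78 and 113 for KO2, and fell by 1.20 ± 0.20 and 1.07 ± 0.19 (edgeR adjusted p 9.80e-06 and 2.61e-05). It shares 1706 exonic bases with SYNC, whose row was at −0.29 in KO1 and −0.19 in KO2. SUPT6H, a histone chaperone of transcription elongation, had 19 and 15, 46 and 36, and 30 and 57 reads and rose by 1.34 ± 0.37 and 1.21 ± 0.36 (adjusted p 0.00580 and 0.0104). It lies over 99 exonic bases of SDF2.

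Replication-independent histone genes, whose expression is not limited to S phase and which mostly make polyadenylated mRNAs, had 10 tested rows of 21, with medians of 0.46 and 0.33. In KO1 1 was higher and 1 lower, in KO2 3 and 1, and in both lines H2AFY was higher and H3F3B lower. H3F3B, 1 of the genes for H3.3, had 1748 and 1717 WT reads, against 1249 and 1157 for KO1 and 910 and 1033 for KO2. It fell by 0.45 ± 0.07 and 0.97 ± 0.07 (edgeR adjusted p 6.88e-06 and 3.36e-13), and its row shares 214 exonic bases with UNK. H2AFY, for macroH2A1, had 162 and 214, 279 and 266, and 361 and 463 reads and rose by 0.62 ± 0.13 and 1.00 ± 0.13 (adjusted p 0.000511 and 9.21e-08). It shares 4968 exonic bases with C5orf66, whose row held 9829 to 14851 reads. A row of either gene may therefore hold reads of its partner.

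The authors' deposited table compared the 4 knockout with the 2 WT libraries and held 12 of the 32 members. In that table HIST1H3F had a log2 fold change of −5.27 with a q-value of 0.000999, and HIST1H4I −0.77 with 0.0126. For HIST2H2AA3 the authors' deposited table gave −1.01 with 0.0946, and for HIST1H1B 1.02 with 0.167. HIST1H2BE was not among its rows.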

How the data were processed

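The genotype labels gave the groups. Per the submitters' processing notes, reads went through Trim Galore, STAR 2.7.1a and HTSeq 0.6.1p1, and limma was also used. Not given in the sources used here are the annotation, the strand setting and how reads shared between copies were handled. The authors deposited raw counts (whole numbers of reads, 1 row a symbol) and FPKM values, with a table of log2 fold changes, p-values and q-values. Its score columns (t values, ranks, an AUC) were made by the authors, by steps not given, and were not used. Every test here used the counts, and the authors' log2 fold changes and q-values are quoted only as theirs.

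Counts were fitted with edgeR 4.0.16 in R 4.3.3 (TMM, filterByExpr, 3 groups, quasi-likelihood test, 14184 rows, 3 residual and 31.9 prior degrees of freedom, Benjamini-Hochberg over all rows) and tested on simulated data. The biological coefficient of variation was 7.57%. Alternatives were RLE and upper-quartile factors, other filters, DESeq2 1.42.0, a replicate block, an offset by 10 Mb bin and leaving out each library. GENCODE v29 gave each symbol its place on GRCh38. Any shared exonic base on the other strand counted as an overlap, and values of partner rows were drawn up only from 100 shared exonic bases. The members and lists were chosen with earlier results of these data known. Named were members called in any comparison, the 2 of each type with most counts per kilobase, those at the count limit, and list rows called in both lines or, with none, the 2 of smallest p.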

Additional observations from a re-analysis of the deposited data

Results flagged for a closer look

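HIST1H4I differed between the knockout lines. The test of the difference itself, KO1 against KO2, gave a log2 value of 0.44 ± 0.07, higher in KO1 (edgeR adjusted p 4.22e-06). Both KO1 libraries (1822 and 1865 reads) were above both KO2 libraries (1582 and 1567). The median shift of its 10 Mb bin also differed between the lines, 0.27 in KO1 and 0.02 in KO2, and with that shift taken out the value was 0.20 (adjusted p 0.0501). The part of the regional shift in the difference was not tested further. Groups of 2 libraries were too small to be screened for libraries that stand apart.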

How the results depend on the processing

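Of the counts of called members, DESeq2 gave 1 in KO2, 1 for the mean of both lines and 1 in both lines, against 3, 4 and 2, where HIST1H3F had no adjusted p in KO2 or the mean. With the 10 Mb bin offset, 0 members differed between KO1 and KO2 by edgeR. Leaving out each library in turn gave 2 to 3 calls in KO1, 2 to 4 in KO2, 2 to 4 for the mean (2 without WT library 2), 1 between the lines and 2 in both lines. With upper-quartile factors the KO1 ratio of the 31 members without HIST1H4I was 0.764 instead of 0.725, and with total counts the KO2 ratio of the H4 rows was 0.521 instead of 0.493; the cause was not tested. Replicate numbers only name the libraries: deviations of same-numbered libraries correlated at −0.03, −0.02 and −0.10, and the replicate block gave 3, 3, 4, 1 and 2 calls, as without it. No called value changed sign in the settings run. Among the members whose fold changes were followed across settings, 5 differences that were not called did. HIST1H1C, HIST1H2BN, HIST1H4E and HIST3H2BB were not followed in this way. HIST1H2AK in KO1 was −0.050 with the bin offset and −0.014 to 0.41 without single libraries, and its mean of both lines 0.042 with upper-quartile factors and −0.19 to 0.19. Without single libraries HIST1H1E ran from −0.83 to 0.37 in KO2 and from −0.91 to 0.29 between the lines, and HIST2H2AA3 from −0.28 to 0.98 between the lines. The H1 sum in KO2 ran from 0.882 to 1.46 of WT. Depth limits these comparisons, since 27 of the 32 members had under 100 reads over 6 libraries and 20 were not tested. Bounds cover counting error only, because PCR copies of 1 molecule cannot be told from separate molecules.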
